A study of Mus musculus with 3 samples.

Results

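The genes that bring sulfate across cell membranes and turn it into its active form were examined in the choroid plexus epithelium (CPE), the cell layer that lines the choroid plexus and secretes the cerebrospinal fluid (CSF). They were 10 genes fixed by name, and every array probe whose gene name in the scanner tables equalled one of them was taken, which gave 15 of 41174 probes. The genes were Slc13a1, Slc13a3, Slc13a4, Slc26a1, Slc26a2, Slc26a6, Slc26a7, Slc26a11, Papss1 and Papss2. Of these, 5 were represented by 1 probe and 5 by several. The CPE came from 3 healthy C57BL/6 mice, aged 18 to 21 weeks, and was laser dissected from the lateral ventricles in frozen brain sections, after which its RNA was amplified and labelled with the red dye Cy5. Every array also carried the same reference RNA, made from C57BL/6 RPE/choroid (RPE is the retinal pigment epithelium, and the choroid is the vascular layer behind it) and labelled with the green dye Cy3. The arrays held no other group or treatment, and the dyes were not swapped, so a preference of a probe for a dye remains in every ratio. Each ratio below is the log2 of the CPE over the reference signal on an array, and the percentile of a probe is its place among all probes by CPE signal.

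Inorganic sulfate cannot cross membranes unaided. The SLC13 proteins carry it into cells together with sodium, whereas the SLC26 proteins exchange anions such as sulfate, chloride, bicarbonate and oxalate. Inside the cell the PAPS synthases join sulfate to ATP and phosphorylate the product to PAPS (3'-phosphoadenosine 5'-phosphosulfate), the donor for sulfotransferases that modify proteoglycans, proteins, lipids, hormones and drugs. The choroid plexus is known as a site where sulfate moves between blood and CSF.

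Of the 10 genes, 2 ranked among the brightest probes of the CPE, the sodium-sulfate cotransporter gene Slc13a4 and the PAPS synthase gene Papss1. For these genes the 250 bases before the annotated transcription start are shown, from RefSeq on GRCm38.p6, 5' to 3' on the strand of the gene, with each CG in capitals. The Slc13a4 window was chr6:35308127-35308376 on the minus strand, and the Papss1 window was chr3:131564518-131564767 on the plus strand.
Slc13a4: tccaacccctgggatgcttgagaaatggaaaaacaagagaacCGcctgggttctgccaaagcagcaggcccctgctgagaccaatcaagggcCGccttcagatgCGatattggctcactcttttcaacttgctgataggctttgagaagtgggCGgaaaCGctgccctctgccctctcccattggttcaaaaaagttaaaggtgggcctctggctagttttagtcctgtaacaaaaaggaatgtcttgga
Papss1: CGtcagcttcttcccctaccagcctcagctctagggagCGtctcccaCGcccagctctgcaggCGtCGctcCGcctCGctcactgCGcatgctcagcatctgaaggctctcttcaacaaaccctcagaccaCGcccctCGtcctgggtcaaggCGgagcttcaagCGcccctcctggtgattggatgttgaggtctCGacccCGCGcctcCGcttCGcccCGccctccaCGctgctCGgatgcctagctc
The Slc13a4 window held 5 CG pairs at a GC content of 50.4%, near the median of 6 pairs and 52.4% over all 32851 windows. The Papss1 window held 20 CG pairs at a GC content of 65.2%, and 82.1% of all windows held fewer pairs. Papss1 has an alternative annotated start, whose window held 5 CG pairs. The letters TATAAA, searched on both strands, were absent from each of these windows and present in 12.4% of all windows. A total of 9 windows of 6 member genes were compared in this way, and 1 of them, of Slc26a1, held TATAAA.

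The arrays differed in how many probes were well above background. In the CPE channel these were 24079, 18933 and 35233 of 41174 probes for mouse 1, 2 and 3, and the member probes followed the same order, with 10, 9 and 14 of 15. In the reference channel 12 of 15 member probes passed on each array. Array 3 also had the highest median CPE intensity, 684 against 139 and 104. The CPE label was checked against 12 marker genes, all of which were in the highest expression class in the CPE and 11 of which were past the threshold in favour of the CPE, with Kl at a log2 ratio of 5.42 and Htr2c at 5.09. The probes of Ttr and Enpp2 were saturated in the CPE on all 3 arrays, so their ratios are only lower limits. In the reference, 10 of 11 genes of RPE and melanocytes and 8 of 8 photoreceptor genes were past the threshold on the other side. Genes of other cell types also passed the background limit in all 3 CPE channels, namely 10 of 11 for RPE and melanocytes, 8 of 8 for photoreceptors, 6 of 6 for stroma, 6 of 6 for endothelium, 6 of 6 for macrophages and 3 of 4 for ependyma. In the ependyma list 3 of 4 genes were past the threshold in favour of the CPE, with Foxj1 at a log2 ratio of 2.98 and Tekt1 at 3.57. Their part in the values below was not tested, and in bulk RNA fewer cells of a type cannot be told apart from less RNA per cell.

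Of the 15 probes, 8 were well above background in the CPE on all 3 arrays, against 44.9% of all probes. The other 7 were so on some arrays, and none failed on every array. In the reference, 10 passed on all 3 arrays. By expression class, 2 probes were high (above the 90th percentile), 6 moderate (50th to 90th), 7 low (10th to 50th) and none very low. The ratio was tested for the 10 probes with a signal well above background in either channel on every array. To pass the threshold, a probe needed a change of at least 2-fold and an adjusted p under 0.05 in limma's moderated test, with Benjamini-Hochberg adjustment over 25841 probes. Among the 10 tested probes 1 was higher in the CPE, beside 7.09% of all tested probes, and 1 was lower, beside 10.2%. The median log2 ratio of the 10 probes was -0.27, and that of all tested probes was -0.040.

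**Figure D1:**
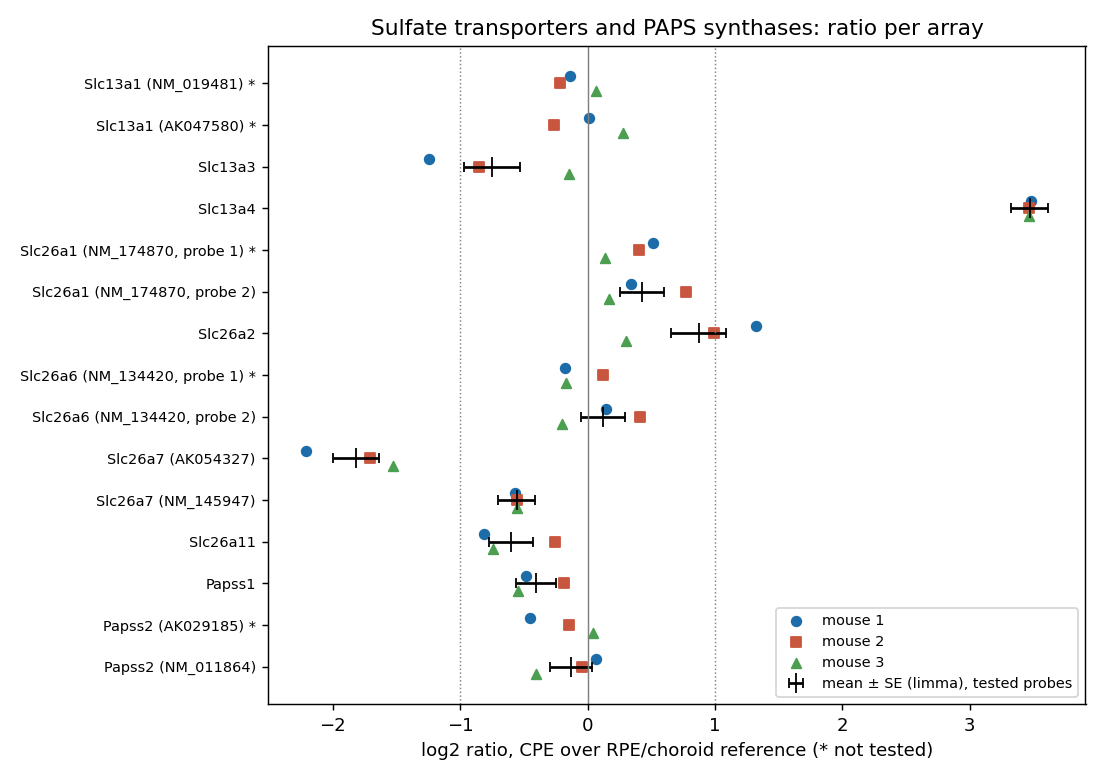
Log2 ratio of CPE over RPE/choroid reference (x axis) for each of the 15 member probes (y axis), with 1 point per array and, for the 10 tested probes, the mean and its limma SE as a bar; dotted lines mark a 2-fold change and an asterisk a probe that was not tested. Slc13a4 stood near 3.47 on all 3 arrays, and the Slc26a7 probe AK054327 lay between -2.21 and -1.53.

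Slc13a4 encodes the sodium-sulfate cotransporter NaS2. Its probe (A_51_P514319, for NM_172892) lies on chromosome 6 at 35198123 to 35198182, minus strand, on mouse build mm8, the build of all probe positions here. The mean red intensity was 30126, 25571 and 23899 in mouse 1, 2 and 3, and the green intensity of the reference was 1181, 1379 and 1282. After Aquantile, a normalization that gives all arrays the same distribution of the average log intensity of both channels, the CPE level was 14.68, 14.75 and 14.63 on the log2 scale and the reference level 10.01, 10.53 and 10.40. All CPE values thus lay above all reference values, and none was saturated. Aquantile does not align the 2 channels of an array. The median CPE level was 7.58, 7.39 and 8.22 on arrays 1, 2 and 3, beside reference medians of 7.93, 8.10 and 7.37. Comparisons of levels between channels carry this offset, which loess removes from the ratios. The log2 ratios after loess were 3.48, 3.46 and 3.46. Their mean was 3.47 (SE 0.15, n = 3), an 11.1-fold higher signal in the CPE, with an adjusted p of 8.68e-06 in limma. Among the 25841 tested probes this ratio ranked 52nd from the top, and among 15279 genes taken by their brightest probe it ranked 47th. The SD of the ratio over the arrays was 0.011, and the median SD over all tested probes was 0.26.

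The Slc13a4 probe was at percentile 99.6 of the CPE, with 99.5, 99.6 and 99.5 in the single mice. It was also at percentile 91.1 of the reference, so the transcript was measured well above background in both tissues. Slc13a4 kept its call under every alternative that was run, and its ratio was 4.28 when each array was centred on its median in place of loess, with 4.79, 4.65 and 3.39 on the arrays. Because the leptomeninges lie next to the dissected tissue, 6 of their marker genes were measured as well. None was past the threshold in favour of the CPE, 3 were lower, and their median log2 ratio was -1.08. Of the 6, 3 were well above background in the CPE on all arrays, with Slc6a13 at a log2 ratio of -3.03. All 6 were well above background in the reference, so these ratios do not give the amount of leptomeningeal RNA in the CPE. The part of such RNA in the Slc13a4 signal was not tested.

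The other SLC13 members differed from this pattern. Slc13a3 encodes a sodium cotransporter known chiefly for dicarboxylates. Its probe (chromosome 2, 165097026 to 165097085) had a CPE log2 level of 7.72, 7.78 and 8.61 and a reference level of 8.74, 9.04 and 7.78. On this scale the CPE was below the reference on arrays 1 and 2 and not on array 3, and the ranges overlapped. The log2 ratios after loess were -1.25, -0.85 and -0.15, negative on each array. The mean of -0.75 (SE 0.22, n = 3) had an adjusted p of 0.0308 in limma but did not reach a 2-fold change. Without mouse 3 it was -1.05 with an adjusted p of 0.00731, which passes the threshold. It passed under no other alternative. Without mouse 1 it was -0.50 (adjusted p = 0.226), and with median centring -0.62 (adjusted p = 0.171). The probe was at percentile 57.5 of the CPE.

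Slc13a1 encodes NaS1, the cotransporter known for sulfate uptake in kidney and intestine. Both of its probes, 17105 bases apart on chromosome 6, were well above background only on array 3, and in each channel. Their CPE log2 levels were 6.82, 6.84 and 7.94 for the probe of NM_019481 and 7.02, 6.90 and 8.49 for that of AK047580. Mouse 3 was the high value for each. The ratios were not tested, and the single values lay between -0.26 and 0.28. The probes were at percentiles 16.6 and 36.1 of the CPE.

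**Figure D2:**
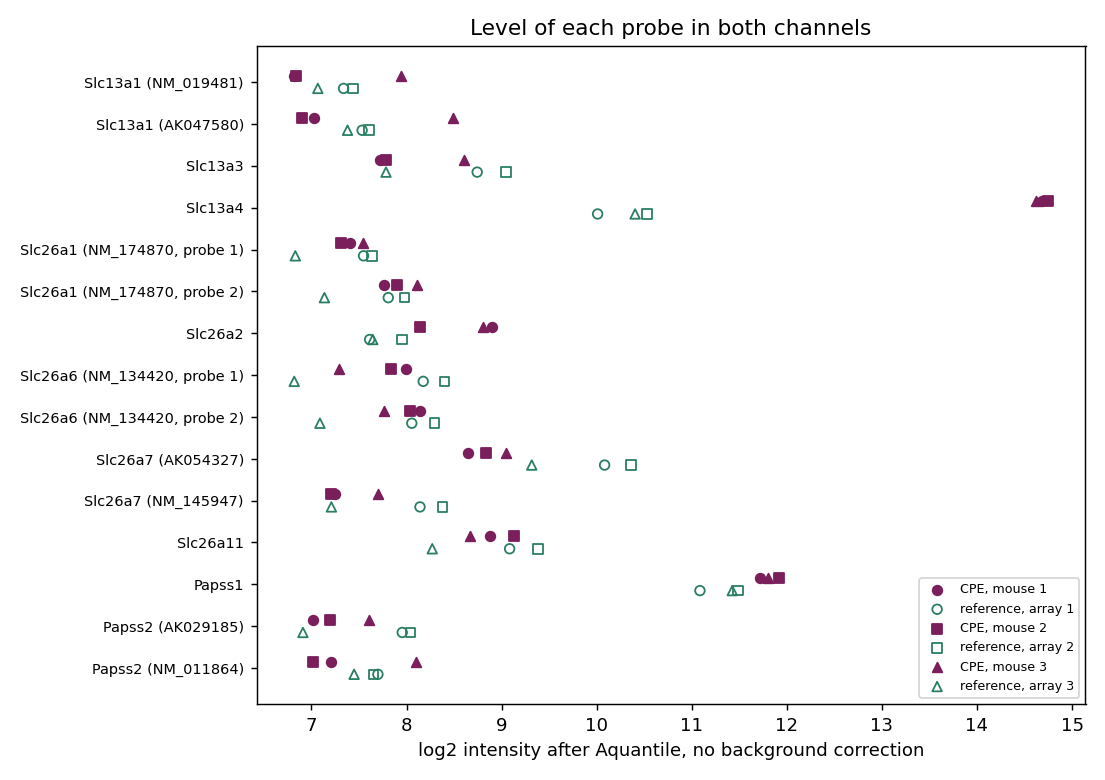
Log2 intensity of each member probe (y axis: probe; x axis: log2 intensity after Aquantile, with no background correction) in the CPE channel (filled) and in the reference channel (open) of each array. Slc13a4 shows the widest gap between channels, with the CPE between 14.63 and 14.75 and the reference between 10.01 and 10.53. The channels of most other probes overlap on this scale, which keeps the offset between the channels of each array. Probes differ in hybridisation, so their levels are not ordered against each other.

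Among the SLC26 exchangers, Slc26a7 was past the threshold and lower in the CPE. It encodes an anion exchanger and channel known for chloride and bicarbonate transport in kidney, stomach and thyroid. At the probe of AK054327 (chromosome 4, 14430339 to 14430398) the CPE log2 level was 8.65, 8.83 and 9.05, and the reference level was 10.08, 10.36 and 9.32. On this scale all CPE values lay below all reference values, although the gap was narrow on array 3. The log2 ratios were -2.21, -1.71 and -1.53, with a mean of -1.82 (SE 0.18, n = 3). The CPE signal was therefore 3.52-fold lower than the reference, with an adjusted p of 0.000281 in limma. The call held under every alternative that was run, from -1.32 with median centring to -2.14 with the scanner software's own background surface.

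The second Slc26a7 probe, of NM_145947 (chromosome 4, 14446625 to 14449984), lies 16286 bases from the first and did not pass. Its log2 ratios were -0.57, -0.55 and -0.55, with a mean of -0.56 (SE 0.15, n = 3) and an adjusted p of 0.0204. The sign was the same and the size was smaller. The probe was well above background in the CPE on 1 array only and in the reference on all 3. It thus entered the test through the reference channel, and its lower ratio is no separate support for the first probe. With the background surface of the scanner software the ratios were -1.92, -1.69 and -1.06, and the mean of -1.56 passed the threshold (adjusted p = 0.0144). The probes were at percentiles 71.2 and 30.8 of the CPE, and at 88.2 and 55.0 of the reference. Beside this gene the marker genes of the reference tissue differed the same way, with a median log2 ratio of -5.26 for RPE and melanocytes, where Tyr and Dct gave only bounds, and of -4.78 for photoreceptors, and their part in it was not tested.

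Slc26a2 encodes the diastrophic dysplasia sulfate transporter, which supplies chondrocytes with sulfate. The CPE log2 level at its probe was 8.89, 8.14 and 8.81, and the reference level was 7.61, 7.95 and 7.64, so the groups did not overlap on this scale. The log2 ratios were 1.32, 0.99 and 0.30, the lowest on array 3. The mean of 0.87 (SE 0.21, n = 3) had an adjusted p of 0.0152 in limma and was a 1.83-fold higher signal, short of 2-fold. The result depended on the treatment of background and on array 3. With the background surface of the scanner software the ratios were 2.01, 1.91 and 0.41 and their mean of 1.44 passed (adjusted p = 0.0463). The mean also passed with the log ratio of the scanner software (1.48, adjusted p = 0.0383), with array weights (1.06, adjusted p = 0.00214) and without mouse 3 (1.16, adjusted p = 0.0048). Under the other alternatives it did not pass. It was 0.65 (adjusted p = 0.118) without mouse 1 and 0.92 (adjusted p = 0.0536) with median centring. The probe was in the moderate class, at percentile 68.0.

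Slc26a11 encodes a sodium-independent sulfate transporter. At its probe (chromosome 11, 119196995 to 119197054) the CPE log2 level was 8.88, 9.13 and 8.67, within the reference range of 8.27 to 9.38. The ratios after loess were -0.81, -0.25 and -0.74, negative on each array, and the mean of -0.60 (SE 0.17, n = 3) had an adjusted p of 0.0277 without reaching 2-fold. With median centring the mean was -0.18 and mouse 2 was at 0.18. The probe ranked at percentile 71.8.

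Slc26a1 encodes Sat1, an exchanger of sulfate, oxalate and bicarbonate. Its probes lie 887 bases apart on chromosome 5, and on GRCm38.p6 the gene lies within the span of Idua. The probe at 108910277 to 108910336 had ratios of 0.34, 0.77 and 0.17. Their mean of 0.43 (SE 0.17, n = 3) had an adjusted p of 0.0889. The other probe was well above background on 2 CPE arrays and on no reference array, so it was not tested. Its log2 ratios were 0.51, 0.40 and 0.14 after loess, and 0.098, 0.18 and -0.030 with median centring, and no fold is given. The percentiles were 54.4 and 33.0, and the dimmer probe ranked lowest in mouse 3, at 17.1 against 44.7 and 46.3.

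Slc26a6 encodes an exchanger of chloride with oxalate and bicarbonate. Its probes on chromosome 9 share 40 bases and are nearly the same measurement. The probe at 108769648 to 108769707 had ratios of 0.15, 0.42 and -0.20, with signs that differed between mice. The mean was 0.12 (SE 0.17, n = 3) with an adjusted p of 0.622, and no difference from the reference was detectable. The other probe was well above background on 2 arrays in each channel and was not tested. Both ranked lowest in mouse 3, at percentiles 28.3 and 8.15 against 57.8 to 64.2 in mice 1 and 2.

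**Figure D3:**
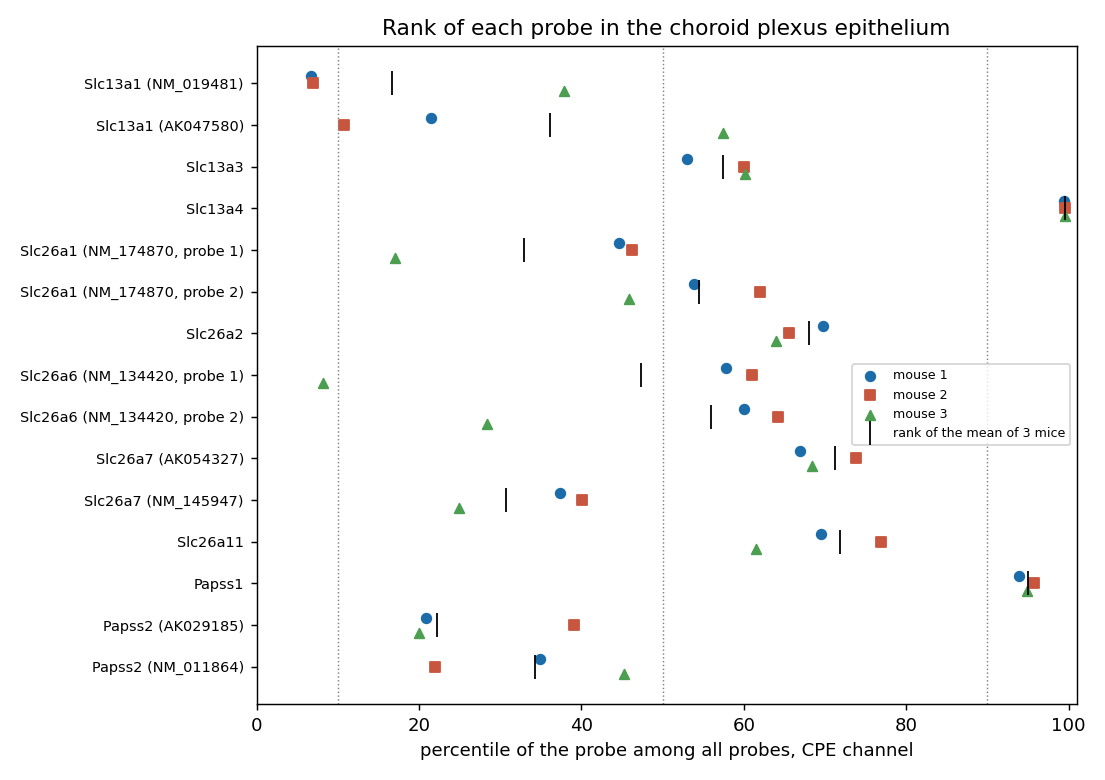
Percentile of each member probe among all 41174 probes in the CPE channel (x axis) for each of the 3 mice (points) and for the mean of the mice (vertical tick); dotted lines mark the limits between the very low, low, moderate and high classes. Slc13a4 (99.5 to 99.6) and Papss1 (93.9 to 95.7) were in the high class in every mouse, and mouse 3 stood apart from the other mice for the probes of Slc13a1 and Slc26a6 and for the first Slc26a1 probe.

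Papss1 and Papss2 encode the PAPS synthases, each with ATP sulfurylase and APS kinase activity. Papss1 was bright in both tissues. At its probe (A_51_P196127, chromosome 3, 131580757 to 131580816) the CPE log2 level was 11.72, 11.92 and 11.81 and the reference level 11.09, 11.49 and 11.43. The CPE values lay above the reference on this scale, but the ratios after loess, which removes a trend of the ratio with intensity, were -0.48, -0.18 and -0.55. Their mean of -0.40 (SE 0.16, n = 3) had an adjusted p of 0.0797. With median centring in place of loess the mean was 0.32 with an adjusted p of 0.539, and the arrays were at 0.73, 0.86 and -0.61, so no direction against the reference is given for Papss1. The probe was at percentile 94.95 of the CPE and at 96.1 of the reference.

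Papss2 was in the low class. Its probe of NM_011864 on chromosome 19 had CPE log2 levels of 7.20, 7.02 and 8.10 and reference levels of 7.70, 7.65 and 7.45, and mouse 3 alone was well above background in the CPE. The ratios of 0.070, -0.044 and -0.41 had a mean of -0.13 (SE 0.17, n = 3) and an adjusted p of 0.58. The probe of AK029185, whose listed strand is opposite to that of the first, was not tested. The probes ranked at percentiles 34.3 and 22.2. Papss1 was thus in the high class and both Papss2 probes in the low class in this tissue, a rank of probes that does not give the ratio of the transcripts.

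Across the 10 tested probes, 8 had ratios of 1 sign on all 3 arrays. The SD of the ratio was below the median of all tested probes for 4 of them. The ratio of array 3 was the nearest to 0 for 4 of 10, among them Slc13a3, Slc26a2 and the Slc26a7 probe of AK054327.

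The steps after transport were followed in 89 other genes of sulfate handling, of which 85 were on the array and 64 could be tested by their brightest probe. Of the 64, 14 were higher and 10 lower in the CPE, against 8.99% and 11.3% of all genes taken in the same way. Their median log2 ratio was 0.23, and that of all genes was -0.013. With limma's treat test against a 2-fold change, 7 were higher and 5 lower, beside 1.76% and 3.71% of all tested probes. These shares are over probes and not over genes by their brightest probe, so the bases are unlike. In the reported fit 7.09% of probes were higher and 10.2% lower, beside the 8.99% and 11.3% of genes.

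**Figure D4:**
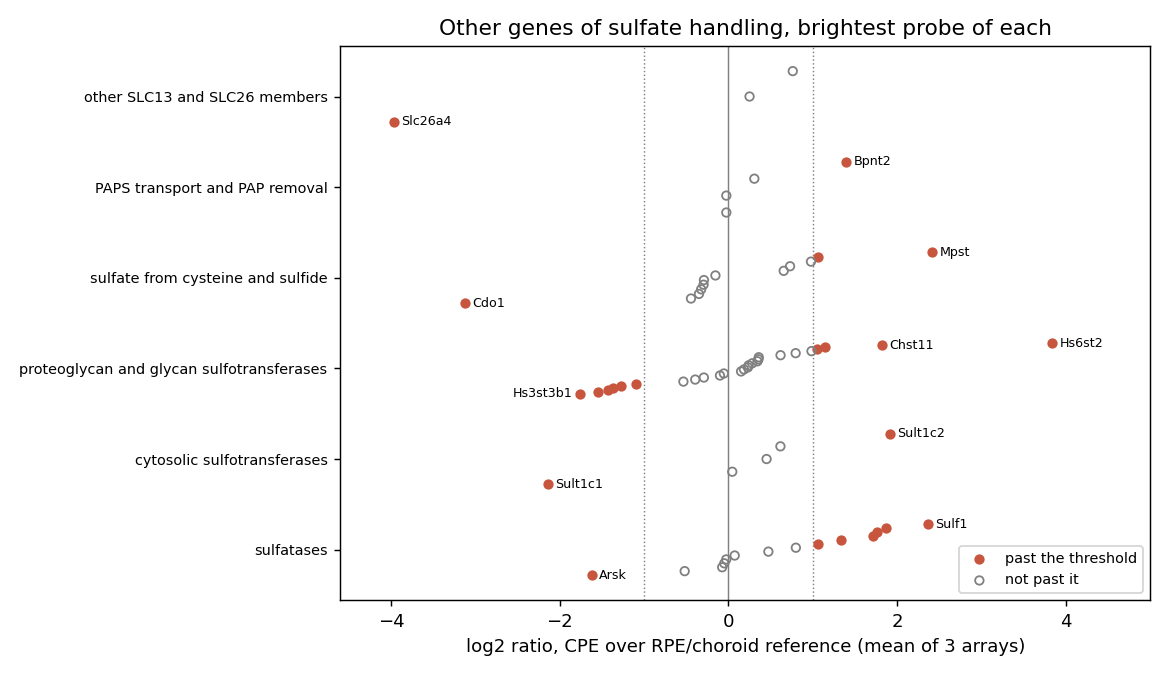
Mean log2 ratio of CPE over reference (x axis) for the 64 tested genes of sulfate handling outside the 10 members, by list (y axis), with genes past the threshold filled and the others open; dotted lines mark a 2-fold change. Among all genes taken by their brightest probe, 8.99% were higher and 11.3% lower. Of the sulfatases 6 were higher and 1 lower. Of the proteoglycan and glycan sulfotransferases, listed with the protein-tyrosine sulfotransferases Tpst1 and Tpst2, 4 were higher and 6 lower. Of those 6, Chst5, Chst9, Hs3st3a1 and Hs3st3b1 were not well above background in the CPE on every array.

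Of the remaining SLC13 and SLC26 genes 3 of 8 could be tested. Slc26a4, which encodes the iodide and chloride exchanger pendrin, was lower in the CPE at -4.23, -4.08 and -3.57 on the arrays, with a mean of -3.96 (SE 0.18, adjusted p = 1.05e-05 in limma). In the group of PAPS transport and PAP removal 1 of 4 passed, beside 8.99% of all genes higher and 11.3% lower. This was Bpnt2 (Impad1 on the array), the Golgi phosphatase that removes the PAP left by sulfation, at 1.31, 1.36 and 1.51 with a mean of 1.39 (SE 0.15, adjusted p = 0.000409). Its other 2 probes did not pass, at 0.33 each. The Golgi PAPS transporter genes Slc35b2 and Slc35b3 had log2 ratios of 0.31 (adjusted p = 0.185) and -0.026 (adjusted p = 0.934), and their probes were at percentiles 93.0 and 74.3.

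Cells also gain sulfate by oxidising cysteine. Of 12 tested genes in a wider list of cysteine and sulfide metabolism 2 were higher and 1 lower, with a median of -0.22. The shares of all genes were 8.99% and 11.3%. Mpst, which encodes mercaptopyruvate sulfurtransferase, was higher at 2.86, 2.48 and 1.91 (mean 2.42, SE 0.21, adjusted p = 0.000129). Mocs1, for a step of molybdenum cofactor synthesis, was higher by its brightest probe (1.07, SE 0.21, adjusted p = 0.00666) and not by another tested probe (-0.10, adjusted p = 0.637). Cdo1, which encodes cysteine dioxygenase, the first step of cysteine oxidation, was lower at -3.51, -3.57 and -2.27 (mean -3.12, SE 0.26, adjusted p = 0.000127). Suox, for the sulfite oxidase that makes sulfate in the last step, was at -0.29 with an adjusted p of 0.204.

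Of 26 tested genes for proteoglycan and glycan sulfotransferases 4 were higher and 6 lower, beside 8.99% and 11.3% of all genes. The list also held the protein-tyrosine sulfotransferase genes Tpst1 and Tpst2. Hs6st2, for a heparan sulfate 6-O-sulfotransferase, was at 3.95, 3.79 and 3.78 (mean 3.84, SE 0.15, adjusted p = 6.71e-06), and a dimmer probe also passed at 1.64. Chst11, for a chondroitin 4-O-sulfotransferase, was at 2.06, 2.09 and 1.32 (mean 1.82), and its 2 other tested probes did not reach 2-fold. Chst15, for the enzyme that adds a 6-O-sulfate to chondroitin 4-sulfate, was at 1.15. Tpst1 was the other higher gene, at 1.05. On the other side, Hs3st3b1, for a heparan sulfate 3-O-sulfotransferase, was at -2.15, -1.78 and -1.36 (mean -1.76), Chst1, for a keratan sulfate sulfotransferase, at -1.55, and Chst5 at -1.43. Of the 6 lower genes, Chst5 and Chst9 were well above background in the CPE on 1 array, and Hs3st3a1 and Hs3st3b1 on 2. These genes entered the test through the reference channel.

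Of 5 tested cytosolic sulfotransferases 1 was higher and 1 lower, beside 8.99% and 11.3% of all genes. Sult1c2 was at 1.94, 2.04 and 1.76 (mean 1.91, SE 0.15, adjusted p = 9.92e-05) and Sult1c1 at -2.61, -2.23 and -1.58 (mean -2.14, SE 0.21, adjusted p = 0.000286). Of 14 tested sulfatases and their activators 6 were higher and 1 lower, beside 8.99% and 11.3% of all genes. Their median was 0.64. Sulf1, for a cell-surface heparan sulfate 6-O-endosulfatase, was at 2.49, 2.25 and 2.36 (mean 2.37, SE 0.15, adjusted p = 3.84e-05). Of the lysosomal enzymes Arsg was at 1.87 (SE 0.15), and Arsb at 1.75 (SE 0.26) by its brightest probe and at 0.72 by a second, which did not pass. Sumf1, whose product activates sulfatases, was at 1.06 (SE 0.18, adjusted p = 0.0029). Arsk was lower at -1.60, -1.67 and -1.59 (mean -1.62, SE 0.15, adjusted p = 0.000182).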

How the data were processed

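Laser-dissected CPE of 3 mice was hybridised against 1 RPE/choroid reference on Agilent 2-colour arrays with 1 dye orientation. The authors scanned the arrays with Agilent Feature Extraction 9.5.3.1; the deposited tables hold intensity on a linear scale in both channels with local background. Per the file headers they also hold the log10 ratio of the processed red over green intensity. A deposited table, normalized by the authors with Aquantile, holds log2 values. Set against the scanner intensities, these were levels of the CPE channel (rank correlation with red 0.993 to 0.996, with the ratio 0.14 to 0.25), with column medians of 6.99, 6.93 and 6.90, and they served as an alternative.

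Intensities were corrected with normexp (offset 50) and normalized by loess within arrays in limma 3.58.1 (R 4.3.3), leaving out control and outlier spots, and spots of a probe were averaged. Tests used lmFit with an intercept alone and eBayes. The reference was 1 RNA, so its biological spread is not in the errors, and nothing in the labels says how its animals were pooled. Classes rank log2 red intensity after Aquantile without background correction. The number of arrays limits precision.

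The members, lists and tests were chosen with earlier results of these data known. All members are named with every probe. Of other sulfate genes, up to 3 with the largest positive and 3 with the largest negative ratio past the threshold per list are named, plus Slc35b2, Slc35b3, Suox and Sumf1. Tpst1, Tpst2, Chst9 and Hs3st3a1 are named besides, to describe their list. Gene names are those of the scanner tables, and 23374 probes (56.8%) matched RefSeq (GRCm38.p6) by accession, through which symbols were updated; no further member probe was found. Alternatives were other background corrections and normalizations, filters, array weights, treat and leaving out each mouse.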

Additional observations from a re-analysis of the deposited data

How the results depend on the processing

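Member probes past the threshold numbered 2 in the reported fit. They were 4 with the background surface of the scanner software and 4 with its log ratio, 2 higher and 2 lower each, where Slc26a2 and the second Slc26a7 probe (-1.56 and -1.65) were added. That Slc26a7 probe entered the test through the reference channel only. Of all tested probes, 9.40% and 11.03% were then higher and 15.4% and 15.1% lower. Array weights gave 2 higher (3 in all). Leaving out a mouse gave 2 to 4, with 1 to 2 higher and 1 to 2 lower, the highest without mouse 3, where Slc26a2 and Slc13a3 were added. Other sulfate genes past the threshold numbered 24, and 12 with treat (7 higher, 5 lower); with both channels well above background 6 were lower in place of 10, since fewer genes were tested. Without a mouse they were 22 to 29, 12 to 19 higher and 9 to 10 lower, beside the shares of all tested probes given above for these fits. Median centring moved the median over all tested probes from -0.040 to 0.092 and the share of calls that were higher from 41.1% to 67.0%. Among other sulfate genes 20 were then higher and 10 lower, beside 14.5% and 7.13% of all tested probes, again shares of probes and not of genes. The sign turned for Papss1 with median centring (0.32), for Slc26a6 without mouse 2 (-0.027 to 0.28 without a mouse) and for Papss2 without mouse 3 (-0.23 to 0.013), none past the threshold; the cause was not tested. Of 113 alternative values of member ratios 103 kept direction and call, as did those of Slc13a4 and of the called Slc26a7 probe. For 15 values without the filter on dim probes, 8 with both channels above background and 10 with treat, the ratios were unchanged. Their direction was fixed in advance, so they do not test it. Among the 15 values, the 5 untested probes also had no call to keep. Ranking only probes well above background left 1 probe in the high class in place of 2, with Papss1 at percentile 88.8 and Slc13a4 at 99.0. Dim probes (7 of 15 not above background in the CPE on every array) limit what could be tested. The CPE and reference channels of each array were paired through the ratio. No other pairing was possible because there was 1 group of samples.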
